A study of Homo sapiens with 8 samples.

Results

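The aminoacyl-tRNA synthetases are the enzymes that join each amino acid to its tRNA. The 35 genes described here, of 62826 genes in the deposited gene tables, were taken by name: 19 encode cytosolic enzymes or subunits and 16 encode mitochondrial enzymes. GARS1 and KARS1, whose products serve both compartments, were counted with the cytosolic genes. Gene symbols are current ones, and older symbols lack the final 1 (AARS for AARS1). RNA with poly(A) tails was sequenced in 8 libraries of neurons grown from LUHMES, a single immortalised human mesencephalic cell line that stops dividing and forms dopaminergic neurons in culture, labelled wild type. All cells had been differentiated for 6 days in medium that held 1 mM dbcAMP, 2 ng/mL GDNF and 1 µg/mL tetracycline. In the treated group, 4 libraries came from cells given antimycin A at 25 µM, which blocks respiratory complex III, and oligomycin at 10 µM, which blocks the ATP synthase, for 8 h. In the vehicle group, 4 libraries came from cells given DMSO. The comparison asks how the synthetase genes respond when respiration and ATP synthesis are blocked together.

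Protein synthesis in the cytosol and in the mitochondrion runs on separate sets of charged tRNAs, and in human cells nearly all of the enzymes for the mitochondrial set are made from separate nuclear genes whose names end in 2. Synthetases fall into class I and class II by the fold of the catalytic domain, and several of the cytosolic ones sit together in the multisynthetase complex, held by scaffold proteins. Many cytosolic synthetase genes are known targets of ATF4, the transcription factor that is translated when the integrated stress response is active.

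Depth ranged from 93.7 to 110 M estimated reads per library. Replicates are named by the differentiation number in the titles, 2 to 5, and values are listed in that order. The transporter gene SLC6A3 was measured at 472 to 671 CPM (reads of a gene relative to the TMM-scaled library size) and TH, the rate-limiting enzyme gene of dopamine synthesis, at 12 to 18.3 CPM in treated and 5.84 to 8.92 CPM in vehicle libraries, while the dopaminergic markers SLC18A2 and DDC lay below 1 CPM in all libraries. Of 6 dopaminergic markers TH and KCNJ6 were higher and DDC lower. Of 5 general neuron markers TUBB3, MAP2 and STMN2 were lower, and the 5 summed to 3190 to 3350 CPM in treated and 4030 to 4280 CPM in vehicle libraries. Astrocyte and microglia markers summed to less than 1 CPM. Of 3 oligodendrocyte lineage markers PDGFRA was higher, MOG was at or near 0, and the sum was 14.6 to 15.6 CPM against 8.40 to 11.1 CPM. The dividing progenitor genes MKI67, TOP2A and CDK1 were all lower in treated cells, with a summed level of 140 to 159 CPM against 186 to 277 CPM, and the part of all these markers in the results below was not tested. In bulk RNA, fewer cells of a type and less RNA per cell cannot be told apart. Vehicle replicate 2 stood apart over all genes tested. Its chi-square per degree of freedom, which sets differences against counting noise, was 313, 333 and 436 against the other vehicle libraries. Among those it was 13.9 to 40.1. For the mitochondrial genes, vehicle replicate 2 was the lowest vehicle library in 14 of 16 (87.5%, against 38.8% of all genes tested), by a median of -0.28 on the log2 scale. The counts it changes are therefore also given without it, and for groups that do not overlap that was chosen after the data were seen.

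Most cytosolic synthetase genes rose, while most mitochondrial ones fell or did not pass the test. Of the 19 cytosolic genes, 13 were higher in treated cells and none was lower, whereas 27.7% of the 19785 genes tested were called higher and 30.2% lower, 57.9% in all (adjusted p under 0.05, edgeR quasi-likelihood test). The median log2 fold change of the 19 was 1.27, beside -0.02 over all genes tested. In 10 of them the rise was by at least 1 on the log2 scale, which 8.79% of all genes tested reached. In all 13 each treated library was above each vehicle library, as in 25.3% of all genes tested. Without vehicle replicate 2, 13 were called higher, when 30.6% of all genes tested were, and in 13 the groups did not overlap, as in 30.3%.

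**Figure D1:**
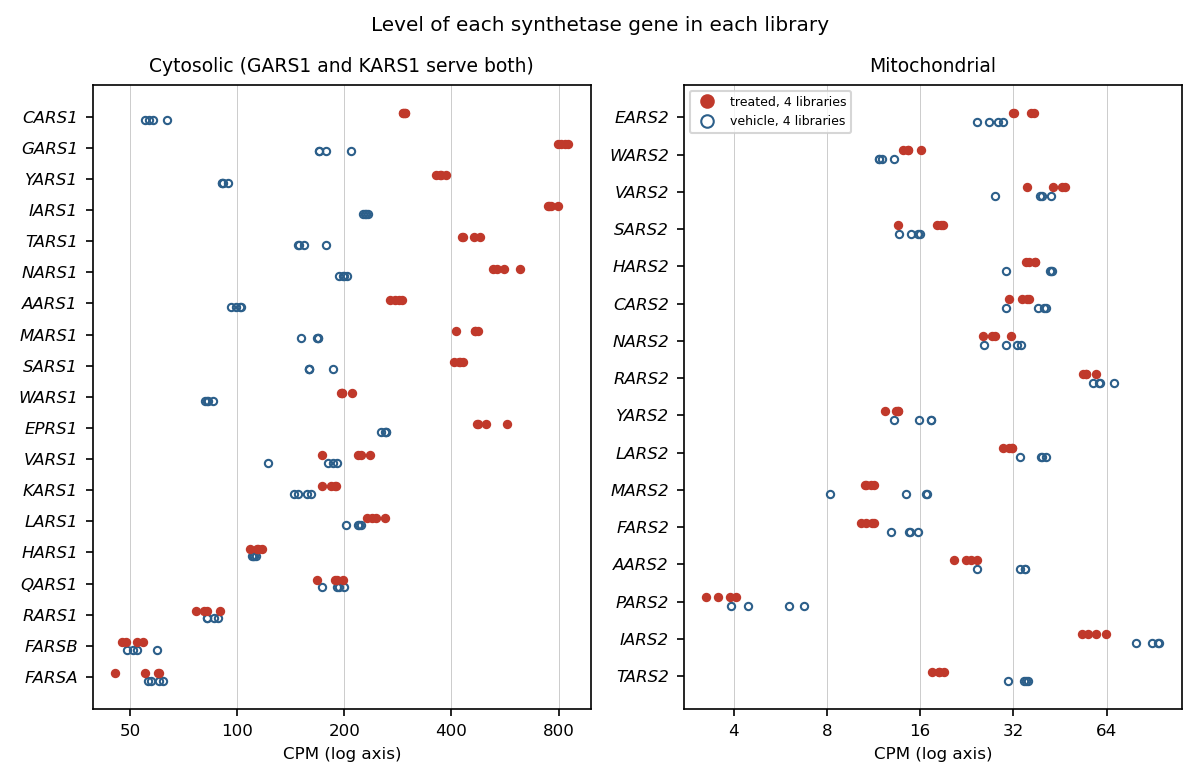
Level of each synthetase gene in each library, in CPM on log axes, with cytosolic genes on the left, mitochondrial genes on the right, and genes ordered by fold change. Filled points are the 4 treated libraries and open points the 4 vehicle libraries. CPM is not corrected for gene length, so points are to be compared within a gene. The 13 called cytosolic genes show treated points wholly to the right of the vehicle points.

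CARS1, the cysteine enzyme, rose most. It was measured at 296, 292, 296 and 293 CPM in treated and 55, 63.6, 56.4 and 58.1 CPM in vehicle libraries, 5.05 times higher by the ratio of means (log2 2.34 ± 0.063 (SE), edgeR adjusted p = 3.2e-09). The treated values lay within a few percent of each other and far from the vehicle range. GARS1, the glycine enzyme of both compartments, was at 814, 795, 836 and 853 CPM against 209, 178, 169.5 and 169.8 CPM (log2 2.18 ± 0.08 (SE), edgeR adjusted p = 2.9e-08). YARS1, which charges tyrosine, was at 372, 361, 385 and 374 CPM against 91.2, 94.3, 90.7 and 90.8 CPM (log2 2.02 ± 0.054 (SE), edgeR adjusted p = 3.1e-09). These 3 genes were each about 4 to 5 times higher, with no overlap between groups.

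IARS1, the isoleucine enzyme of the multisynthetase complex, was at 748, 749.9, 760.0 and 798 CPM in treated and 234, 226, 228 and 230.0 CPM in vehicle libraries, a log2 rise of 1.73 ± 0.055 (SE). The threonine enzyme TARS1 was at 430.3, 429, 464 and 482 CPM against 178, 149, 154 and 149 CPM, a log2 rise of 1.52 ± 0.077 (SE). NARS1, which charges asparagine, was at 536, 525, 564 and 626 CPM against 203, 193, 198 and 199 CPM, a log2 rise of 1.50 ± 0.069 (SE). The highest treated level of NARS1 was in replicate 5, and the groups stayed apart. AARS1, the alanine enzyme, was at 286, 289.9, 278 and 269 CPM against 96.3, 102, 99.5 and 102 CPM, a log2 rise of 1.49 ± 0.056 (SE). MARS1, the methionine enzyme of the complex, was at 474, 467, 465 and 413 CPM against 151, 169, 168 and 168 CPM, a log2 rise of 1.47 ± 0.069 (SE). The lowest treated MARS1 level, in replicate 5, was still more than 2 times the highest vehicle level. SARS1, which charges serine, was at 419.8, 407, 424 and 429.9 CPM against 186, 159, 159 and 159 CPM, a log2 rise of 1.34 ± 0.069 (SE). WARS1, the tryptophan enzyme, was at 211, 197, 197 and 195 CPM against 85.2, 81.2, 82.3 and 82.6 CPM, a log2 rise of 1.27 ± 0.055 (SE). EPRS1, a single protein that charges both glutamate and proline, was at 474, 472, 500.5 and 575 CPM against 262, 254, 260.0 and 263 CPM, a log2 rise of 0.96 ± 0.073 (SE). The largest edgeR adjusted p of these 8 genes was that of EPRS1, 2.6e-06.

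Because ATF4 with its C/EBP partners binds the element TGATGNAAN, the start-site windows of the synthetase genes were searched for those letters on both strands. The windows, from 250 bases before to 50 after a start site, came from RefSeq on GRCh38.p14, and 1268 of 35116 windows (3.61%) hold the element. Of the 11 rising cytosolic genes with a window, 7 hold it, as do 0 of 5 cytosolic genes with a window that were not called, 1 of 14 mitochondrial genes (YARS2) and 0 of 16 partner genes listed further on. These are counts of genes, and a gene can have several windows. By windows, 7 of 16 hold it for the rising genes, 0 of 5 for those not called, 1 of 18 for the mitochondrial and 0 of 19 for the partner genes. The rising genes YARS1 and LARS1 have no window in the table. The matches of the 6 genes with the largest rise among those that hold it are shown, each with 10 bases on either side and the element in capitals, 5′ to 3′ on the gene's own strand, so that the shared core can be read beside the differing flanks.
CARS1: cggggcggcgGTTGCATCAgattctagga
GARS1: ttacgcggcgATTTCATCAtgctccgagc
IARS1: ttttcagcgcGTTGCATCAcctccgtgcg
TARS1: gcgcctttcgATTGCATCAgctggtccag
NARS1: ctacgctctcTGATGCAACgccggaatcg
AARS1: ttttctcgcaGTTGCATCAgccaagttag
NARS1 carries the element on its sense strand and the other 5 carry its reverse complement. The shown stretches are chr11:3057408-3057436, minus strand (CARS1), chr7:30594834-30594862, plus strand (GARS1), chr9:92293693-92293721, minus strand (IARS1), chr5:33440956-33440984, plus strand (TARS1), chr18:57621804-57621832, minus strand (NARS1) and chr16:70289676-70289704, minus strand (AARS1). In CARS1, GARS1, IARS1, TARS1 and NARS1 the match lies within 34 bases of the start site, and in AARS1 it begins 188 bases before it. MARS1 holds the element across its start site. Of the rising genes with a window, EPRS1, KARS1, SARS1 and WARS1 have no match in it. A match describes letters in the window and was not tested as a binding site.

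The other cytosolic genes changed little or did not pass the test. KARS1, the lysine enzyme, was at 183, 173, 189 and 189.9 CPM in treated and 144, 149, 161 and 157 CPM in vehicle libraries, a log2 rise of 0.27 ± 0.061 (SE) with an edgeR adjusted p of 0.0038. The leucine enzyme LARS1 was at 232, 239, 245 and 261 CPM against 223, 202, 218 and 219.5 CPM, a log2 rise of 0.18 ± 0.062 (SE) with an edgeR adjusted p of 0.029. The LARS1 groups just failed to overlap, at 232 CPM for the lowest treated and 223 CPM for the highest vehicle library, and its call was lost in 8 of 14 alternative settings, including without treated replicate 4 and without vehicle replicates 3, 4 or 5. KARS1 lost its call with library totals in place of TMM. VARS1, the valine enzyme, was at 236, 219, 223 and 173 CPM against 122, 180.0, 190.4 and 186 CPM (log2 0.33 ± 0.14 (SE), edgeR adjusted p = 0.073). Vehicle replicate 2 was far below the other vehicle libraries of VARS1, and treated replicate 5 lay below all of these, so the groups overlapped. Without treated replicate 5, with DESeq2 and with effective length as an offset VARS1 passed the threshold, as higher. Without vehicle replicate 2 its log2 difference was 0.20 (edgeR adjusted p = 0.097).

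For 5 cytosolic genes the estimate lay near 0 and treated and vehicle libraries overlapped. HARS1, the histidine enzyme, had a log2 difference of 0.03 (95% interval -0.09 to 0.15). QARS1, which charges glutamine, had -0.02 (95% interval -0.18 to 0.14), and RARS1, which charges arginine, had -0.04 (95% interval -0.18 to 0.10), both log2 differences of complex members. The subunits of the cytosolic phenylalanine enzyme had log2 differences of -0.09 for FARSA (95% interval -0.30 to 0.11) and -0.06 for FARSB (95% interval -0.24 to 0.11). The upper bounds of these intervals are all far under the smallest of the 10 large rises. The signs of HARS1, QARS1 and RARS1 changed under some scalings or left-out libraries.

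**Figure D2:**
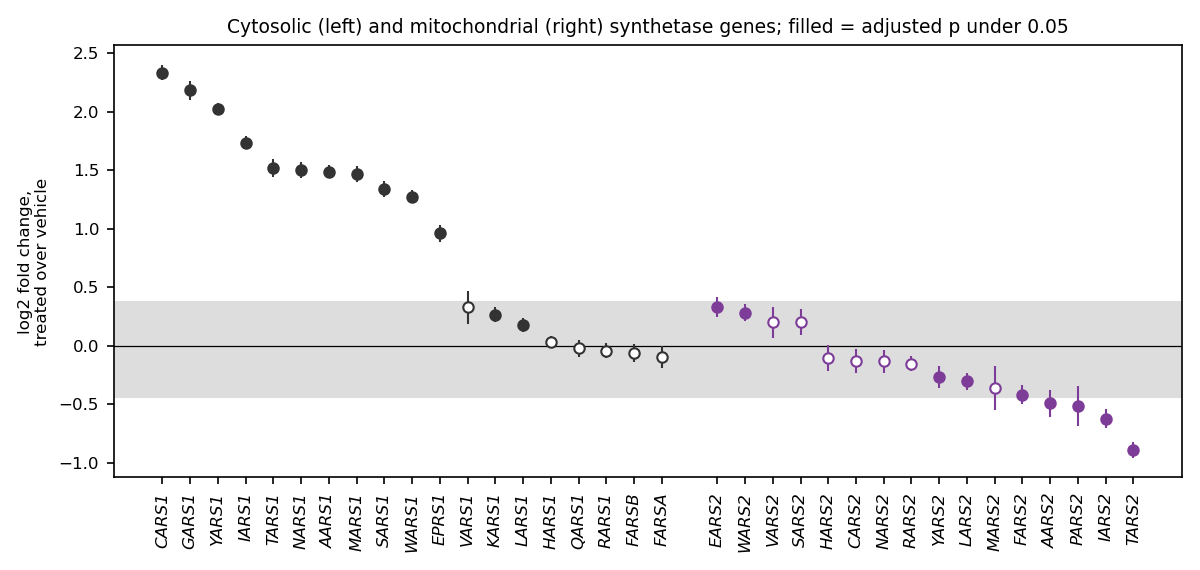
Log2 fold change of treated over vehicle for each cytosolic (left, dark) and mitochondrial (right, purple) synthetase gene, with bars of 1 standard error. Filled points have an adjusted p under 0.05 and the grey band spans the quartiles of all genes tested. Above the band lie 11 cytosolic genes and no mitochondrial gene.

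Members of the multisynthetase complex and the other cytosolic genes both included risers and non-risers. Of the 7 complex members, 5 were higher (IARS1, MARS1, EPRS1, KARS1 and LARS1) with a median log2 fold change of 0.27 over the 7. Of the 12 cytosolic genes outside the complex, 8 were higher with a median of 1.42. Class I and class II cytosolic genes each had 6 of 9 members higher, with medians of 1.27 and 1.34, and EPRS1 belongs to both classes. These counts stand beside the 27.7% of all genes tested that were higher, and the difference between the subgroups was not tested.

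The mitochondrial synthetase genes changed less, and more of them fell than rose. Of 16 genes, 7 were lower, 2 were higher and 7 were not called, with a median log2 fold change of -0.21. None fell by as much as 1 on the log2 scale, as 8.49% of all genes tested did. The share called lower, 7 of 16, stands beside 30.2% of all genes tested. Without vehicle replicate 2, 11 were lower and 2 higher, when 32.4% of all genes tested were lower, and the median was -0.29. The added genes were CARS2, HARS2, MARS2 and NARS2. Leaving out other libraries in turn left 5 to 8 lower.

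TARS2, the mitochondrial threonine enzyme, fell most. It was at 19.1, 18.5, 18.4 and 17.5 CPM in treated and 30.8, 35.5, 34.6 and 35.1 CPM in vehicle libraries (log2 -0.89 ± 0.069 (SE), edgeR adjusted p = 3.2e-06), with no overlap. IARS2, for isoleucine, was at 55.9, 53.3, 59 and 63.8 CPM against 79.6, 89.4, 94.6 and 93.5 CPM (log2 -0.62 ± 0.079 (SE), edgeR adjusted p = 8.5e-05). FARS2, the phenylalanine enzyme, was at 11.2, 11.4, 10.3 and 10.7 CPM against 12.9, 15.8, 14.8 and 14.8 CPM (log2 -0.42 ± 0.08 (SE)), and LARS2, for leucine, was at 29.6, 31, 31.7 and 31.6 CPM against 33.5, 40.7, 39.1 and 39.5 CPM (log2 -0.30 ± 0.074 (SE)). In these 4 of 16 genes each treated library was below each vehicle library, as in 28.2% of all genes tested. This held for 10 of 16 without vehicle replicate 2, with AARS2, CARS2, HARS2, MARS2, PARS2 and YARS2 added, and for 33.9% of all genes tested.

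AARS2, PARS2 and YARS2, the mitochondrial enzymes for alanine, proline and tyrosine, were also lower, with overlap. AARS2 was at 24.5, 23.4, 22.5 and 20.6 CPM in treated and 24.4, 34.8, 33.7 and 35 CPM in vehicle libraries (log2 -0.49 ± 0.12 (SE)), and only vehicle replicate 2 reached the treated range. PARS2 had the fewest reads of the 35 genes, at 3.57, 3.27, 4.08 and 3.89 CPM against 3.91, 4.46, 6.04 and 6.75 CPM (log2 -0.52 ± 0.17 (SE), edgeR adjusted p = 0.024), and lost its call in 4 of 14 alternative settings, when treated replicate 2 or 3 or vehicle replicate 4 or 5 was left out. YARS2 was at 13.6, 13.4, 12.3 and 13.6 CPM against 13.2, 15.9, 17.4 and 17.3 CPM (log2 -0.27 ± 0.095 (SE), edgeR adjusted p = 0.033) and lost its call when any single library other than treated replicate 5 or vehicle replicate 2 was left out. Beside MARS1, its methionine partner MARS2 had 11.3, 10.7, 10.7 and 11.1 CPM against 8.21, 14.4, 16.8 and 16.7 CPM, and the low vehicle value is replicate 2. Its log2 difference was -0.36 ± 0.19 (SE) (edgeR adjusted p = 0.13), and -0.55 with an adjusted p of 1e-04 by the same test without that library.

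EARS2 and WARS2 were the higher ones among the mitochondrial genes. EARS2 charges glutamate, and in mitochondria also loads glutamate on the glutamine tRNA. It was at 32.1, 31.9, 37.3 and 36.4 CPM in treated and 24.4, 26.7, 28.5 and 29.6 CPM in vehicle libraries (log2 0.33 ± 0.085 (SE), edgeR adjusted p = 0.007), and lost its call with library totals in place of TMM. The tryptophan enzyme WARS2 was at 14.1, 14.6, 14.6 and 16.1 CPM against 13.1, 12, 11.8 and 11.8 CPM (log2 0.28 ± 0.073 (SE), edgeR adjusted p = 0.0073). The remaining log2 differences, which did not pass the test, were -0.15 for RARS2, -0.13 for CARS2, -0.13 for NARS2, -0.11 for HARS2, 0.20 for SARS2 and 0.20 for VARS2, the last 0.08 without vehicle replicate 2. SARS2 passed, as higher, without treated replicate 5, and RARS2 passed, as lower, in that setting. SARS2 shares 57% of its exon bases with other annotated genes, VARS2 22%, HARS2 15.8%, MARS1 13.3% and WARS1 10.6%. In SARS2 and VARS2 most shared bases lie on the same strand (1492 and 1858, against 349 and 0 on the opposite strand), where strand cannot separate the genes. In HARS2, MARS1 and WARS1 most lie on the opposite strand, and whether strand was used in counting is not stated. Reads on shared bases may therefore count for either gene. The other 30 members share under 10%.

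Per length, cytosolic transcripts were the more abundant set in both groups. TPM (reads scaled by effective length and to a common sum per library) summed over the 19 cytosolic genes to 4705, 4706, 4819 and 4926 in treated and 1909, 2314, 2279 and 2334 in vehicle libraries. Over the 16 mitochondrial genes the summed TPM was 350.4, 358, 356 and 371 in treated and 310.1, 466, 460.3 and 478 in vehicle libraries. The cytosolic over mitochondrial ratio of these sums was 13.4, 13.1, 13.6 and 13.3 in treated libraries and 6.15, 4.97, 4.95 and 4.89 in vehicle libraries. The gap widened in all treated libraries, and the highest vehicle ratio was that of replicate 2. In treated cells the highest mean TPM was that of GARS1 (630.5 ± 30.2, SD, n = 4), followed by MARS1 (533 ± 21.2) and NARS1 (479.9 ± 33.9). In vehicle cells it was that of QARS1 (239 ± 28.9), followed by NARS1 (196 ± 18.4) and SARS1 (180.5 ± 13.4), and NARS1 and SARS1 differed by less than the SD of NARS1.

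Comparing the cytosolic and the mitochondrial enzyme for the same amino acid within each library removes the scaling between libraries. Of 17 such pairs, 12 had a ratio of estimated reads that was higher in each treated than in each vehicle library, and none was lower in each (two-sided exact permutation test over 70 assignments of the libraries, p = 0.0286 for each of the 12, the smallest it can give; p-values not adjusted over the 17 pairs). The median log2 difference of the ratio was 1.16. Without vehicle replicate 2, the treated ratios were above all vehicle ratios in 15 pairs, with both phenylalanine pairs and the histidine pair added, and 13 pairs had an exact p under 0.05. No share over other gene pairs was computed, so these counts have no background beside them. Taken singly, 25.3% of all genes tested had each treated library above each vehicle library, and 28.2% had each below. The pairs are not independent, since EPRS1 and FARS2 each enter more than a single pair.

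**Figure D3:**
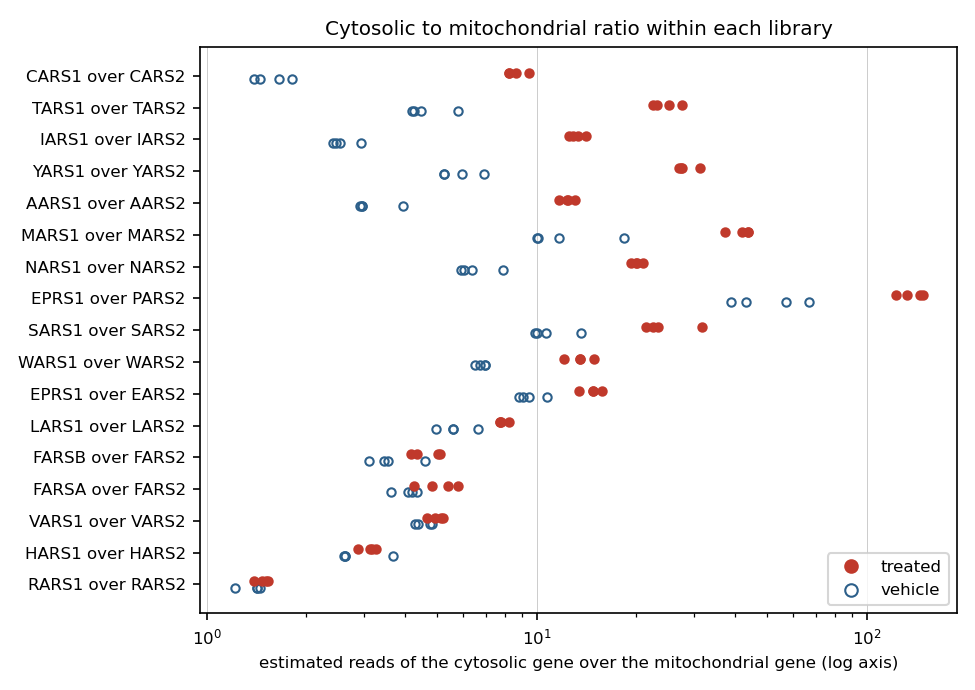
Estimated reads of the cytosolic gene divided by those of the mitochondrial gene for the same amino acid, per library, on a log axis. Filled points are treated and open points vehicle libraries. In 12 of 17 pairs all treated points lie to the right of all vehicle points, and in the 5 lowest pairs the groups overlap.

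For cysteine the ratio of CARS1 to CARS2 was 8.22, 8.24, 8.67 and 9.47 in treated and 1.82, 1.65, 1.39 and 1.45 in vehicle libraries, a log2 difference of 2.46. For threonine, TARS1 over TARS2 went from 5.77, 4.20, 4.46 and 4.24 in vehicle to 22.5, 23.2, 25.2 and 27.6 in treated libraries, a log2 difference of 2.41, to which the rise of TARS1 and the fall of TARS2 both contributed. IARS1 over IARS2 (2.36), YARS1 over YARS2 (2.28), AARS1 over AARS2 (1.97), MARS1 over MARS2 (1.77) and NARS1 over NARS2 (1.63) followed in log2 difference. EPRS1 was set against both of its mitochondrial counterparts, with log2 differences of 1.44 over PARS2 and 0.62 over EARS2. Smaller shifts without overlap were those of SARS1 over SARS2 (1.16), WARS1 over WARS2 (0.99) and LARS1 over LARS2 (0.48), and the last had p = 0.057 by the exact test when any treated library was left out.

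The pairs that overlapped were those for phenylalanine, arginine, valine and histidine. FARSA over FARS2 had a log2 difference of 0.31 (exact p = 0.0571) and FARSB over FARS2 0.35 (exact p = 0.0857). RARS1 over RARS2 (0.11, exact p = 0.143) and VARS1 over VARS2 (0.13, exact p = 0.0857) differed by less. RARS1 over RARS2 stopped overlapping when TPM replaced reads.

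HARS1 and HARS2 lie head to head and were the pair with the highest p. HARS1 was at 114, 118, 114 and 108 CPM in treated and 111, 111, 113 and 110.1 CPM in vehicle libraries, and HARS2, the mitochondrial histidine enzyme, was at 35.8, 37.7, 35.1 and 37.6 CPM against 30.2, 42.3, 42.8 and 42.1 CPM. Their ratio was 3.17, 3.12, 3.25 and 2.88 against 3.67, 2.63, 2.63 and 2.61 (log2 difference 0.12, exact p = 0.4). In vehicle cells 3 ratios lay near 2.6 and replicate 2, low in HARS2, was above all others. The 84 bases between their RefSeq start sites (GRCh38.p14, chr5:140691371-140691454, plus strand, the strand of HARS2) are shown because these start sites lie on either side of this interval. It holds no TGATGNAAN, so nothing is in capitals.
HARS1 to HARS2: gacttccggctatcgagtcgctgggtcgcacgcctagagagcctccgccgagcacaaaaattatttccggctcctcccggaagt
The interval is 59.5% G and C.

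Genes that work beside the synthetases were described from a list, and of the 19 reported here 4 were higher and 6 lower, with 9 not called, beside 27.7% higher and 30.2% lower of all genes tested (8 of the 19 were higher with effective length as an offset). The counts were again 4 and 6 without vehicle replicate 2. XPOT, which exports tRNA from the nucleus, was at 483, 481, 498 and 526 CPM in treated and 177, 157, 150.2 and 154 CPM in vehicle libraries (log2 1.64 ± 0.07 (SE), edgeR adjusted p = 7.4e-08), a rise in the range of the large cytosolic ones. The elongation factors that carry charged tRNA to the cytosolic ribosome were higher, EEF1A2 by 1.03 and EEF1A1 by 0.33 on the log2 scale. Their mitochondrial counterpart TUFM was not called (0.08), and its exchange factor TSFM was lower (-0.36), a call lost with effective length as an offset (-0.23, edgeR adjusted p = 0.21). The scaffold genes of the multisynthetase complex were not called, with log2 differences of 0.12 for AIMP1, -0.10 for AIMP2 and 0.00 for EEF1E1.

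Among mitochondrial partners, the enzyme that converts the glutamate loaded by EARS2 into glutamine has 3 subunits, which moved differently. QRSL1 was at 33.4, 32, 35.8 and 38.8 CPM in treated and 23.1, 22.9, 23.4 and 24.6 CPM in vehicle libraries (log2 0.57 ± 0.074 (SE)). GATB was at 18.5, 17.5, 18.2 and 17.9 CPM against 21.8, 23.6, 23.2 and 23.2 CPM (log2 -0.35 ± 0.061 (SE)), and GATC was not called (log2 0.02 ± 0.062 (SE)). MTFMT, which formylates the initiator methionine tRNA in mitochondria, was lower (log2 -0.44). PTRH2, which encodes a peptidyl-tRNA hydrolase, was not called (log2 -0.08). DTD2 and DTD1, editing genes whose products act on wrongly charged tRNAs, were lower, with log2 changes of -1.01 and -0.41. Of the genes that make selenocysteine on its tRNA, SEPSECS was lower (-0.44) and PSTK was not called (0.05). TRNT1, which adds the CCA end, and the editing factor gene AARSD1 were not called (0.05 and 0.14).

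Transcripts of 31 synthetase genes could be tested for a change in their share of the gene's reads, and 3 of them passed: TARS1, WARS1 and LARS1 (edgeR diffSpliceDGE, adjusted p over 11746 genes, of which 9.34% passed). The share among members, 3 of 31, lies near the 9.34% of all genes. The number was 7 without vehicle replicate 2 and 1 without treated replicate 3 or 4, settings for which no share over all genes is given here. By level, too, more of all genes tested were called without vehicle replicate 2 (62.9%, against 57.9%). Reads are divided among transcripts by estimate, and that uncertainty is not part of the test. Annotated transcripts covered only 0.586 to 14% of RARS2 reads and 37.4 to 51.7% of EARS2 reads, so much of these 2 genes lay outside the test. Transcript names carry the older gene symbols.

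TARS1 passed in all alternatives run (adjusted p = 0.0034 by diffSpliceDGE). TARS-210, annotated as a target of nonsense-mediated decay, took 4.05, 4.79, 4.29 and 4.41% of the gene's reads in treated and 1.36, 1.28, 1.12 and 1.35% in vehicle libraries. The main coding transcript TARS-201, of 723 codons, held 92.8% and 95.3% in the mean. In WARS1 (adjusted p = 0.0097 by diffSpliceDGE) the retained intron transcript WARS-237 took 3.65, 3.59, 3.61 and 3.31% in treated and 0.527, 0, 0.658 and 0.472% in vehicle libraries, where replicate 3 is listed at 0. WARS1 missed the threshold when treated replicate 3 (adjusted p = 0.077 by diffSpliceDGE) or 4 (0.089) was left out. In LARS1 (adjusted p = 0.025 by diffSpliceDGE) the retained intron transcripts LARS-204 and LARS-207 rose, LARS-204 from 1.25, 1.40, 1.51 and 1.83% in vehicle to 3.62, 4.47, 4.67 and 4.15% in treated libraries. Annotated transcripts covered 66.9 to 81.8% of LARS1 reads, and its call was lost without treated replicate 2, 3 or 4 (adjusted p = 0.066, 0.14 and 0.14 by diffSpliceDGE) and without vehicle replicate 3 or 4 (0.072 and 0.081).

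**Figure D4:**
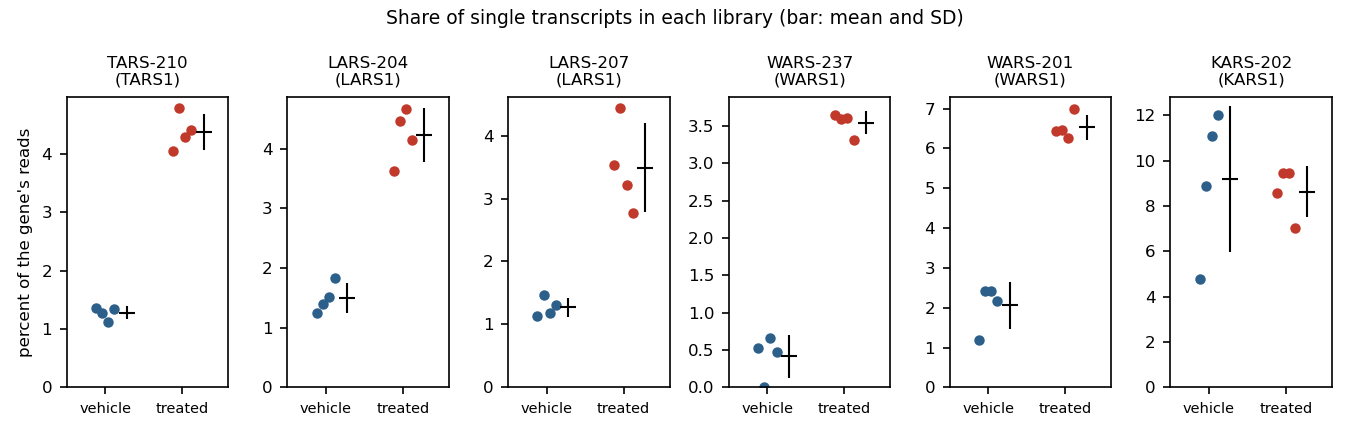
Share of single transcripts among their gene's reads in each library, in percent, with the mean and SD beside the points. The first 5 panels show treated shares above vehicle shares, and the last shows the mitochondrial form of KARS1, where the groups overlap.

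The dual-compartment enzymes make their forms from alternative transcripts or start codons, so their transcripts were examined whatever the test gave. KARS-202, of 625 codons, encodes the longer mitochondrial form of the lysine enzyme and took 8.57, 9.44, 9.47 and 7.05% of KARS1 reads in treated and 4.77, 8.86, 11.1 and 12% in vehicle libraries. KARS-201, of 597 codons, encodes the cytosolic form and took 84.1 ± 0.696% and 82.9 ± 2.15% (SD, n = 4). No shift between the forms passed the test (adjusted p = 0.29 by diffSpliceDGE), and the vehicle libraries spread more widely than the treated ones. GARS-201, of 739 codons, from which both forms of the glycine enzyme are read by a choice of start codon, took 67.4, 62.2, 62.8 and 54.9% in treated and 68.3, 67.3, 78 and 73.3% in vehicle libraries (adjusted p = 1 by diffSpliceDGE). The share of GARS1 reads in transcripts with an annotation entry was 62 to 85.5%.

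Summed over all transcripts annotated as retained intron or nonsense-mediated decay, the share of such reads was higher in each treated than in each vehicle library for 8 of 15 cytosolic genes with enough reads, and lower for none. A gene was counted where such a transcript had 10 or more reads in 4 or more libraries. Its annotated reads also had to reach a set minimum in each library. Over all genes that met these minimums, 19.4% were higher in this way and 6.34% lower. This description was chosen after the transcript values were seen and carries no test. The median difference was 1.6 percentage points for the cytosolic genes, -0.843 for the mitochondrial genes and 0.225 for all genes. Without vehicle replicate 2, the treated shares were above all vehicle shares in 11 of 15 cytosolic and 4 of 7 mitochondrial genes, beside 29.3% of all genes higher in this way and 8.65% lower, and the medians were 2.08, 0.411 and 0.432 percentage points. The genes added were EPRS1, GARS1, TARS1, HARS2 and TARS2. MARS1 stood at 33.3, 34.6, 34.8 and 34.6% in treated and 23.9, 22.5, 21.3 and 20.6% in vehicle libraries, CARS1 at 26.5, 27, 26.6 and 26.8% against 19.5, 21.1, 18.9 and 20%, and LARS1 at 10.4, 13.9, 12.5 and 9.20% against 4.41, 4.32, 3.71 and 4.20%. The shift was also present in 3 of 5 counted cytosolic genes whose level was not called. These were HARS1, FARSA at 4.84, 5.59, 4.91 and 4.76% against 3.69, 4.20, 3.37 and 4.57%, and RARS1 at 5.73, 6.05, 5.08 and 4.41% against 3.63, 3.78, 3.16 and 2.77%. QARS1 and VARS1 overlapped, also without vehicle replicate 2. Of 7 mitochondrial genes, VARS2 and LARS2 were higher in each treated library, VARS2 at 29.3, 31.3, 32.5 and 26.9% against 16.5, 19.1, 24.2 and 23.1%. The other 5 overlapped. Vehicle replicate 2 stood apart with 20.8% in TARS2, and in the cytosolic TARS1, which also overlapped, it had 9.01% where the other vehicle libraries had 2.89 to 3.13%.

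**Figure D5:**
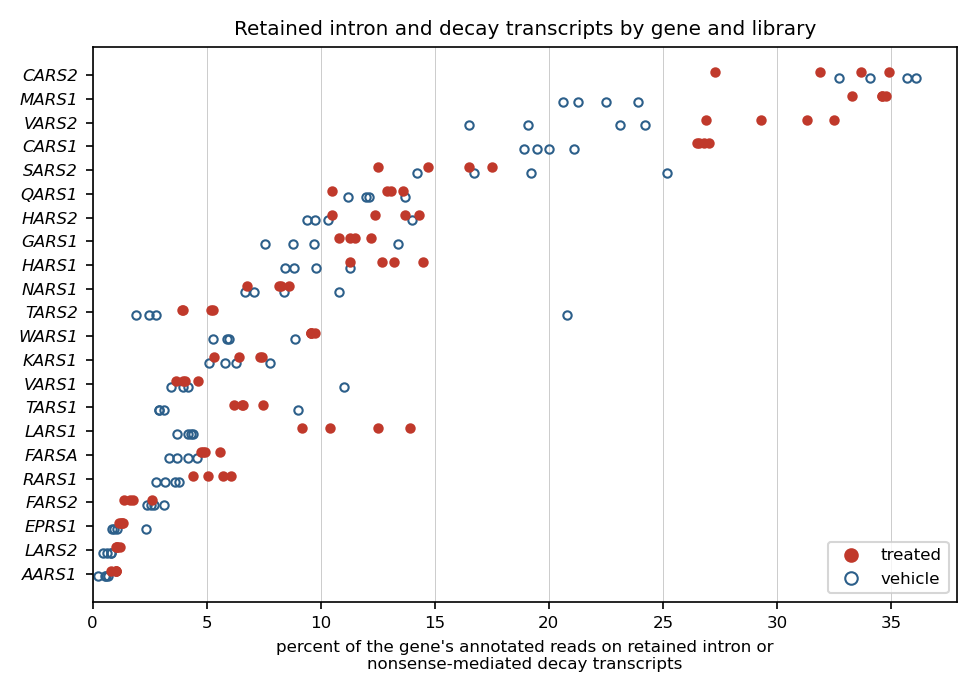
Share of each gene's annotated reads on retained intron or nonsense-mediated decay transcripts, in percent, per library, for the 22 synthetase genes that met the read minimums. Filled points are treated and open points vehicle libraries. Treated points of MARS1, CARS1 and LARS1 lie wholly above the vehicle points.

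The authors' deposited table of coding genes lists 19 cytosolic genes, 13 of them higher and none lower at a false discovery rate under 0.05, and 15 mitochondrial genes, 2 higher and 8 lower. Of its 12898 genes 57.7% pass in either direction, and the shares by direction were not computed, so the counts by direction have no like share beside them. Its calls differ from those above for LARS1, which does not pass there, for VARS1, which is higher, and for RARS2, which is lower, so the cytosolic 13 are not all the same genes.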

How the data were processed

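Per the file headers, the authors' quantifier gave estimated counts, TPM and an effective length for each gene and transcript of each library. The column layout is that of salmon, though no source used here names the quantifier. Per the submitters' processing notes, HISAT2, SAMtools, StringTie and hg38 were used, with no version or role. A table of coding genes, also deposited, holds a normalised signal, the authors' log2 fold change, their p-value and a false discovery rate, and served only to compare calls.

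Estimated counts were rounded, filtered with filterByExpr and scaled by TMM. Treated and vehicle libraries were compared by the quasi-likelihood test of edgeR 4.0.16 (R 4.3.3), with no covariate, on 19785 genes, with Benjamini-Hochberg adjustment over all of them and a threshold of 0.05. The SE restates the test: it is the log2 fold change over the square root of F. Intervals are 95% and unadjusted. Transcript usage was tested with diffSpliceDGE where a transcript had 10 or more reads in 4 or more libraries, and types and coding lengths came from GENCODE 29. DESeq2 1.42.0 served as an alternative. The fits were also run on simulated counts with few changed genes, a common dispersion and no library that stood apart. The data here differ in these respects, so that run does not vouch for the calls. The libraries are independent batches by the series text, and libraries of a group differed by more than counting noise. The treated titles name 4 technical replicates, and the same number is listed for the vehicle libraries. Each library was counted as a single replicate. The members, the partner list and the motif were chosen with earlier results of these data known. All 35 members and 19 partners are named, with 1 planned partner not reported here, as are transcripts of genes whose usage passed, of KARS1 and of GARS1. Promoter stretches are those of the 6 rising genes with the largest change that hold the motif, and of HARS1 and HARS2.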

Additional observations from a re-analysis of the deposited data

Results flagged for a closer look

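In each group of 4 libraries, a value was singled out when its gap to the nearest other library exceeded 0.829 of the group's range (Dixon's 95% critical value). This marked 10 of 70 groups, where chance marks about 1 in 20. Vehicle replicate 2 accounts for 6 of them. It was the lowest vehicle library in MARS1 (150.6 CPM, the others at 168 to 169), VARS1 (122 CPM, the others at 180.0 to 190.4), AARS2 (24.4 CPM, the others at 33.7 to 35) and HARS2 (30.2 CPM, the others at 42.1 to 42.8). In SARS1 (186 CPM, the others at 159 CPM) and WARS2 (13.1 CPM, the others at 11.8 to 12) it was the highest. Treated replicate 5 was the lowest treated library in MARS1 (413 CPM, the others at 465 to 475) and SARS2 (13.6 CPM, the others at 18.1 to 18.9). In WARS1, treated replicate 2 was the highest (211 CPM, the others at 195 to 197), and in YARS1, vehicle replicate 3 was (94.3 CPM, the others at 90.7 to 91.2).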

How the results depend on the processing

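The alternatives were library totals or RLE factors in place of TMM, no filter on low counts, effective length as an offset, DESeq2, the differentiation number as a block, and each library left out. Of the 35 members, 20 kept call and direction in all 14 alternatives. With library totals the median of all genes was -0.12, against -0.02, the share of called genes that were higher was 37.9% against 47.8%, 11 cytosolic genes were higher (KARS1 and LARS1 lost) and 1 mitochondrial gene was higher. With the length offset 8 partner genes were higher. Leaving out 1 library at a time gave 12 to 14 cytosolic genes higher, 5 to 11 mitochondrial genes lower, and 1 to 7 members called for transcript usage. For these usage counts no share over all genes is given. Same-numbered treated and vehicle libraries did not deviate together (correlations -0.08, 0.03, 0.03 and 0.00), so the numbers were not taken as pairs. With the number as a replicate block 10764 genes were called, against 11461, with 12 cytosolic genes higher, 6 mitochondrial genes lower and 2 members called for usage. LARS1 and YARS2 lost their calls with the block (edgeR adjusted p = 0.053 and 0.069), and LARS1 that for usage (0.052). The sign of some uncalled genes changed. With library totals HARS1 was -0.0667, GATC -0.0793, PSTK -0.0435, TRNT1 -0.0512 and TUFM -0.0178. With the length offset HARS1 was -0.0504, RARS1 0.0264, EEF1E1 0.0183 and PTRH2 0.0964. EEF1E1 was 0.0196 with RLE factors and 0.0194 with DESeq2. With 1 library left out EEF1E1 ranged from -0.0582 to 0.0307, QARS1 from -0.0658 to 0.0284, GATC from -0.0156 to 0.0418 and TRNT1 from -0.0159 to 0.0996. The causes were not tested. Reads on PARS2, at 3.27 to 6.75 CPM, are the fewest, and its SE is among the widest.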
